A study of Mus musculus with 6 samples.

Results

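The chemokine ligands described here are the genes of the deposited tables whose names begin with *Ccl* or *Cxcl* followed by a number, together with *Cx3cl1* and *Xcl1*. *Cxcl12* and the platelet gene *Ppbp* were left out by the rule. The rule found 37 of the 48733 named genes, of which 23 are CC ligands, 12 are CXC ligands and 2 are of the CX3C and XC types. RefSeq lists *Ccl21d* and *Ccl24* on the same build (GRCm38.p6), but no feature of the tables carries either name.

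Chemokine ligands are small secreted proteins that direct the migration of leukocytes. They are named by the spacing of their first conserved cysteines as CC, CXC, CX3C or XC ligands, and they act through G protein-coupled receptors on the responding cell, while atypical receptors bind and clear them. In bone and marrow they are known for holding and releasing blood cells and for drawing the monocytes from which macrophages and osteoclasts form.

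The 6 RNA libraries came from CC016/GeniUnc mice, an inbred Collaborative Cross strain. The labels call 3 of them bone and 3 of them osteoblasts, and name no treatment or engineered allele for either group. Bone was the cortical shaft of the femur after the marrow had been spun out. The osteoblasts were grown from adherent marrow stromal cells and differentiated by adding dexamethasone, ascorbic acid and beta-glycerophosphate. The age and sex of the mice are not given in the sources used here, and the methods give 3 mice, whose femora were taken and whose marrow was cultured, without saying which library comes from which mouse, so that p-values measure the spread between these libraries. Each library is named by its deposited label and number.

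Levels are given as FPKM, the number of fragments normalised to transcript length and library depth. The implied depth was 13.6 to 22.6 M aligned read pairs per library, and 3 pairs would give a 1 kb transcript an FPKM of 0.133 to 0.221. This floor reflects only the error of counting. Unnamed features accounted for 71.5% of the FPKM in bone 2 and 65.0% in osteoblasts 1, against 27.4 to 30.7% in the other 4 libraries. The hemoglobin gene *Hbb-bt* was above 1000 FPKM in bone 3 (34838 FPKM), osteoblasts 2 (34268 FPKM) and osteoblasts 3 (48650 FPKM), and was at most 7.05 FPKM in bone 1, bone 2 and osteoblasts 1. Each label therefore holds libraries of both kinds, and for cultured osteoblasts the high hemoglobin and blood cell markers go against the label. In bone 1 and 2 the osteocyte gene *Sost* was at 0.176 and 0.0661 FPKM. The libraries with *Hbb-bt* above 1000 had 15.8 to 22.7 FPKM. *Dmp1*, another osteocyte gene, ran the other way, at 104 and 50.0 FPKM against 22.5 to 24.2 FPKM. The 5 osteocyte markers found of 6 summed to 114 and 57.1 FPKM in bone 1 and 2, against 48.2 to 53.5 FPKM. Adipocyte markers summed to 197 and 17.2 FPKM against 181 to 239 FPKM. Osteoclast markers summed to 261 and 47.1 FPKM against 447 to 500 FPKM. Fibroblast and stromal ones summed to 1788 and 1236 FPKM against 295 to 430 FPKM. Osteoblasts 1 had 0.198 FPKM of *Sost* and 127 FPKM of *Dmp1*, the latter above bone 1 and 2. Its sums were 135 FPKM for osteocyte, 70.4 FPKM for adipocyte, 122 FPKM for osteoclast and 760 FPKM for fibroblast and stromal markers. Skeletal muscle markers summed to at most 1.09 FPKM and endothelial ones to at most 5.21 FPKM where *Hbb-bt* was below 1000, against 221 to 943 FPKM and 36.0 to 49.9 FPKM. Whether labels were exchanged was not tested. The deposited labels were kept, no library was moved, and the *Hbb-bt* state of each library is given only as a description.

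Markers of blood cells moved with *Hbb-bt*. The 11 neutrophil markers found of 12 summed to 15267 to 18533 FPKM in the 3 libraries with *Hbb-bt* above 1000 FPKM and to 6.02 to 75.4 FPKM in the other 3, where *Elane* was listed at 0. The 7 T and NK cell markers found of 8 summed to 58.8 to 78.6 FPKM against 0 to 0.0392 FPKM, with *Cd3e*, *Cd3d*, *Cd3g*, *Cd8a*, *Nkg7* and *Gzma* listed at 0 in each of the other 3. The 6 B cell markers summed to 129.98 to 134.38 FPKM against 0 to 0.429 FPKM, and *Cd79a*, *Cd79b*, *Ms4a1* and *Igll1* were listed at 0 in the other 3. The 12 monocyte and macrophage markers found of 14 ran the other way, with 1697 to 2102 FPKM in the libraries with *Hbb-bt* above 1000 and 5814 to 10653 FPKM in the rest. The 8 osteoblast markers found of 10 were present throughout, at 6557 to 7747 FPKM and 6247 to 10168 FPKM, but after scaling to the sum over named genes at 7617 to 8848 against 17088 to 23558. Single markers parted in both directions, with *Ibsp* at 43.1 to 91.3 FPKM against 986 to 1278 FPKM and *Bglap2* at 1641 to 1959 FPKM against 264 to 513 FPKM. The part of these cells in the ligand levels below was not tested, and in bulk RNA fewer cells of a type and less RNA per cell cannot be told apart.

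Of the 37 ligands, 21 reached 1 FPKM in at least 1 library, 13 of them CC ligands and 6 CXC ligands. The 16 others stayed at or below 0.926 FPKM, and 6 of them were listed at 0 in every library. The summed FPKM of the 37 was 375, 147 and 124 in bone 1, 2 and 3 and 162, 191 and 121 in osteoblasts 1, 2 and 3. Scaled so that all named genes of a library share a common total, the sums were 630, 412 and 141 in bone and 416, 222 and 147 in osteoblasts. The labels overlapped on both scales, and on the scaled one the 3 libraries with *Hbb-bt* below 1000 FPKM lay above the other 3.

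**Figure D1:**
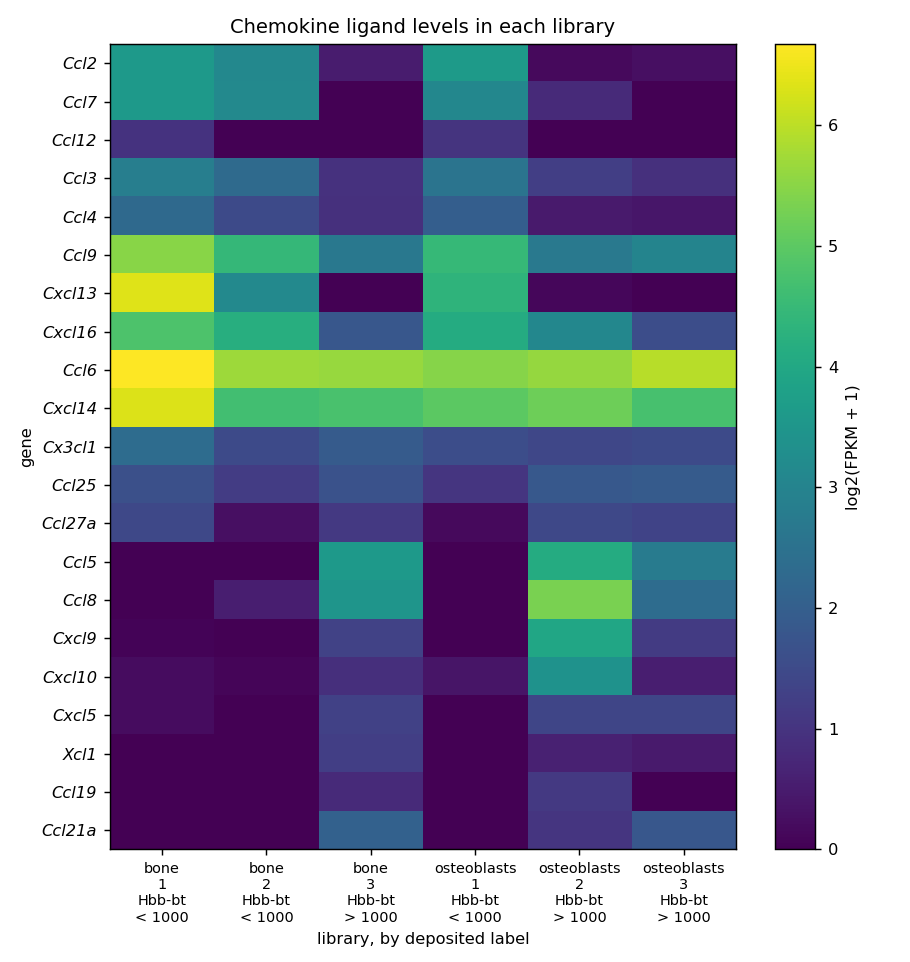
Level of the 21 chemokine ligands that reached 1 FPKM in some library, with genes in rows, the 6 libraries in columns and colour giving log2(FPKM + 1). *Ccl6* and *Cxcl14* are bright in every library, the upper rows from *Ccl2* to *Cxcl16* are brightest in libraries with *Hbb-bt* below 1000 FPKM, and *Ccl5*, *Ccl8* and *Cxcl9* are brightest where it was above.

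*Ccl6*, a myeloid CC ligand that acts through *Ccr1*, was the highest of the 37 ligands in each of the 6 libraries. It measured 101, 50.7 and 49.4 FPKM in bone 1, 2 and 3, and 43.3, 48.1 and 60.7 FPKM in osteoblasts 1, 2 and 3. Bone 1 stood above the other 5, which mixed both labels. After scaling to the sum over named genes bone 1 was at 170, bone 2 at 142 and osteoblasts 1 at 111, against 55.9 to 73.8 in the rest, and the ratio of bone 1 to bone 2 went from 1.99 to 1.19. The feature overlaps that of *E230016K23Rik*. *Ccl6* was above 91.8 to 96.2% of the genes with at least 1 FPKM in a library. It made up 25.2 to 50.3% of the summed ligand FPKM, with the lowest share in osteoblasts 2 and the highest in osteoblasts 3.

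*Cxcl14*, a CXC ligand made by many stromal and epithelial cells, followed at 78.8, 24.1 and 26.0 FPKM in bone 1, 2 and 3 and 30.6, 35.5 and 25.4 FPKM in osteoblasts 1, 2 and 3. Its share of the ligand sum varied little, from 16.4 to 21.0%. It ranked just below *Ccl6* among the ligands in 4 libraries, and in the other 2 *Cxcl13* (bone 1) or *Ccl8* (osteoblasts 2) lay between them.

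*Ccl9*, a close neighbour of *Ccl6* that also acts through *Ccr1* and is known from osteoclasts and macrophages, measured 44.1, 20.9 and 5.42 FPKM in bone 1, 2 and 3 and 21.1, 5.46 and 7.13 FPKM in osteoblasts 1, 2 and 3. The libraries with *Hbb-bt* below 1000 FPKM were the 3 highest. The ratio of *Ccl9* to *Ccl6* within a library does not depend on scaling. It was 0.436, 0.413 and 0.486 in bone 1, bone 2 and osteoblasts 1, and 0.110, 0.114 and 0.117 in bone 3, osteoblasts 2 and osteoblasts 3. By label, the log2 ratio averaged -1.89 ± 1.13 (SD, n = 3) in bone and -2.42 ± 1.20 (SD, n = 3) in osteoblasts, a difference of -0.54 that was smaller than the spread within a label (exact permutation test, two-sided, p = 1, adjusted p = 1 over 3 ratios). Ratios of *Cxcl16* to *Ccl6* (p = 0.7, exact permutation test) and of *Cxcl14* to *Ccl6* (p = 1, exact permutation test) were tested in the same family. The ratios were chosen after their values had been seen, and 3 libraries against 3 cannot give an exact p below 0.1.

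**Figure D2:**
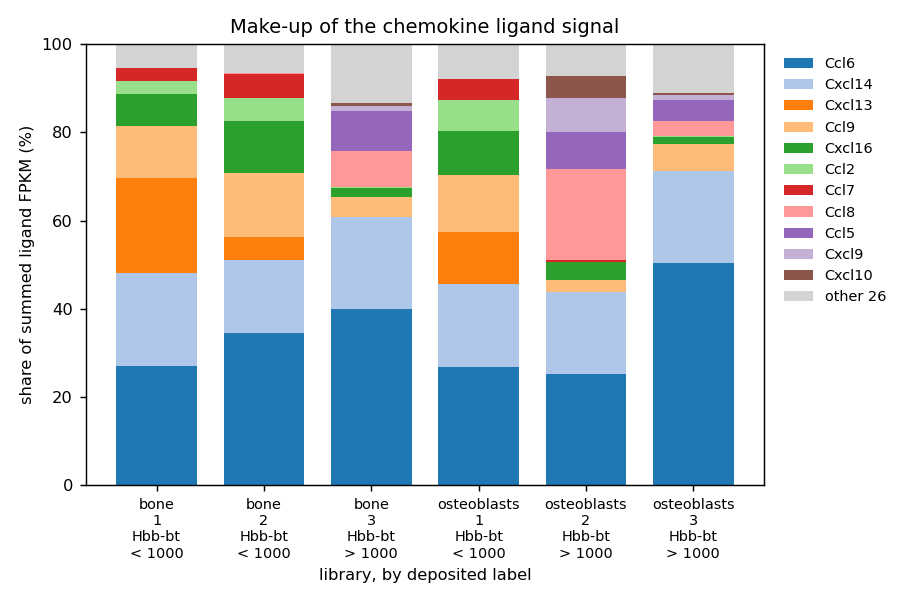
Share of each chemokine ligand in the summed FPKM of the 37 ligands, in percent, with 1 bar per library and the 26 lower genes pooled in grey. *Cxcl13*, *Ccl2* and *Ccl7* take larger shares in bone 1, bone 2 and osteoblasts 1, and *Ccl8* and *Ccl5* in bone 3, osteoblasts 2 and osteoblasts 3.

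*Ccl9* and *Ccl6* lie side by side on the minus strand of Chr. 11, at chr11:83572919-83578636 and chr11:83587882-83593087 in GRCm38, with 9245 bp between the features. The 250 bases before the RefSeq start of each gene (GRCm38.p6) are shown because these neighbours had different patterns across the libraries, and those of *Cxcl14* and *Cxcl13* because they complete the 4 ligands with the highest mean FPKM. They run 5′ to 3′ on the gene's strand, from chr11:83593088-83593337 for *Ccl6*, chr11:83578637-83578886 for *Ccl9*, chr13:56296552-56296801 (minus strand) for *Cxcl14* and chr5:95956689-95956938 (plus strand) for *Cxcl13*. Capitals mark matches on either strand to 4 motifs, namely the 10-base consensus of NF-kB, TGANTCA for AP-1, the 10-base interferon-stimulated response element, and TATAAA for the TATA box.
Ccl6: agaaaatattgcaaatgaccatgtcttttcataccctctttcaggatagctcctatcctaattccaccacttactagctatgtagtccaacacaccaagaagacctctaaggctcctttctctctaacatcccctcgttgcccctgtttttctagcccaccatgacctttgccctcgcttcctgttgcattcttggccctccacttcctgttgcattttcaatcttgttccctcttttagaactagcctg
Ccl9: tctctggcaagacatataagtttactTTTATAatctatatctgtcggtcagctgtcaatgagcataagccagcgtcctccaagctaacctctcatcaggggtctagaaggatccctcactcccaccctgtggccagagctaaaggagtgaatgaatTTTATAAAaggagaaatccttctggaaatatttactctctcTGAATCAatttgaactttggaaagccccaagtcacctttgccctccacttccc
Cxcl14: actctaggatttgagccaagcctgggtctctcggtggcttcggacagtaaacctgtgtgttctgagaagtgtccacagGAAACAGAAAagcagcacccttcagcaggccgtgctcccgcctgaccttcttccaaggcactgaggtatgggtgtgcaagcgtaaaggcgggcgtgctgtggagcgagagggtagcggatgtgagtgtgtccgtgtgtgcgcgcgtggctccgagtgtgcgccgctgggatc
Cxcl13: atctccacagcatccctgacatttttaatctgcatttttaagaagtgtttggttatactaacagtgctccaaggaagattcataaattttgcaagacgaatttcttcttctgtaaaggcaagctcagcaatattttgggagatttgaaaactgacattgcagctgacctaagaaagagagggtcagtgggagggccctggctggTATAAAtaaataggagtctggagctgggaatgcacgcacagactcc

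The *Ccl6* stretch holds none of the 4 motifs. That of *Ccl9* holds TGANTCA from base -53 to -47 before the gene start and TATAAA 3 times, of which those from -94 and -92 overlap on opposite strands. *Cxcl13* holds TATAAA from -46 to -41, and *Cxcl14* holds the interferon-stimulated response element from -172 to -163 on the opposite strand. Among the first listed promoter of 27025 genes, TATAAA occurred in 13% within these 250 bases, TGANTCA in 6.87%, the interferon-stimulated response element in 3.04% and the NF-kB consensus in 1.17%. RefSeq promoters were found for 26 of the 37 ligands, and of these 8 held TATAAA, 2 held TGANTCA, 3 held the interferon-stimulated response element and 5 held the NF-kB consensus. The latter was in *Cxcl1*, *Cxcl2*, *Cxcl3*, *Cxcl10* and *Ccl1*, of which only *Cxcl10* reached 1 FPKM. A match is a description of letters and not of binding.

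The monocyte attractants *Ccl2* and *Ccl7*, which act mainly through *Ccr2*, measured highest in bone 1, bone 2 and osteoblasts 1. *Ccl2* was at 11.3, 7.70 and 0.413 FPKM in bone 1, 2 and 3, and at 11.4, 0.120 and 0.209 FPKM in osteoblasts 1, 2 and 3. *Ccl7* was at 11.0 and 7.88 FPKM in bone 1 and 2 and listed at 0 in bone 3, and it was at 7.47 and 0.723 FPKM in osteoblasts 1 and 2 and listed at 0 in osteoblasts 3. For both genes each label held values at the top and at the bottom of the range. The related *Ccl12* was seen at 0.955 FPKM in bone 1 and 1.02 FPKM in osteoblasts 1 and was listed at 0 in the other 4 libraries. No feature is named *Ccr2*, which was not analysed here.

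*Ccl3* and *Ccl4*, inflammatory ligands made by activated macrophages among other cells, measured highest in the same libraries. *Ccl3* measured 6.25, 3.94 and 0.930 FPKM in bone 1, 2 and 3 and 4.89, 1.36 and 0.895 FPKM in osteoblasts 1, 2 and 3. *Ccl4* measured 3.89, 1.85 and 0.904 FPKM in bone and 3.02, 0.405 and 0.312 FPKM in osteoblasts. For both, the 3 libraries with *Hbb-bt* below 1000 FPKM held the 3 highest values, and the labels overlapped.

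*Cxcl13*, the attractant of B cells through *Cxcr5*, varied most among the abundant ligands. It measured 80.8 and 7.88 FPKM in bone 1 and 2 and was listed at 0 in bone 3. In osteoblasts 1 and 2 it measured 19.1 and 0.0773 FPKM, the latter below the floor, and it was listed at 0 in osteoblasts 3. Bone 1 was thus 10.3-fold above bone 2 and 4.24-fold above osteoblasts 1, or 6.14-fold and 2.78-fold after scaling to the sum over named genes, although all 3 had *Hbb-bt* below 1000 FPKM. B cell markers were at or near 0 in those 3 libraries.

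*Cxcl16*, a membrane-bound ligand of *Cxcr6* that also serves macrophages as a scavenger receptor, measured 27.2, 17.3 and 2.53 FPKM in bone 1, 2 and 3. In osteoblasts 1, 2 and 3 it measured 16.2, 7.49 and 1.97 FPKM, so that osteoblasts 2 lay between the other high and low values. Its feature overlaps *Zmynd15* on the opposite strand over part of its length, and the library kit does not mark strand.

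Another set of ligands was higher in bone 3, osteoblasts 2 and osteoblasts 3. *Ccl5*, made by T cells, NK cells and platelets among others, measured 11.0, 16.1 and 5.90 FPKM in these 3 and was listed at 0 in bone 1, bone 2 and osteoblasts 1. *Ccl8*, a monocyte attractant that binds several CC receptors, measured 10.1, 39.5 and 4.14 FPKM in the same 3, against 0.472 FPKM in bone 2 and a listing at 0 in bone 1 and osteoblasts 1. A check of 11 genes that every cell uses, such as *Eef1a1* and *B2m*, found each above 0 in all 6 libraries. *Actb* could not be checked, as no feature carries its name. The lowest values ran from 0.815 FPKM (*Tbp*) to 1052 FPKM (*Eef1a1*). The check therefore cannot show that a low ligand listed at 0 was absent.

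*Cxcl9* and *Cxcl10*, interferon-induced ligands of *Cxcr3*, stood out in a single library. *Cxcl9* measured 14.5 FPKM in osteoblasts 2, against 1.48 FPKM in bone 3, 1.24 FPKM in osteoblasts 3, 0.0422 FPKM in bone 1 and a listing at 0 in bone 2 and osteoblasts 1. *Cxcl10* measured 9.56 FPKM in osteoblasts 2, against 0.157, 0.0618 and 0.851 FPKM in bone 1, 2 and 3, and 0.305 and 0.476 FPKM in osteoblasts 1 and 3. Osteoblasts 2 was 9.83-fold above bone 3 for *Cxcl9*, 11.2-fold for *Cxcl10* and 3.90-fold for *Ccl8*, and after scaling to the sum over named genes these ratios were 10.0, 11.4 and 3.97. With 1 such library no error can be put on these ratios. A pair of other interferon-responsive genes, picked after their values had been seen, were also highest in osteoblasts 2. *Gbp2* measured 17.4 FPKM there against 1.25 to 4.51 FPKM in the other 5, and *Irf1* 45.1 FPKM against 6.37 to 32.2 FPKM, with all 3 libraries above 1000 FPKM of *Hbb-bt* higher than the rest. *Ifng*, which encodes interferon gamma, was listed at 0 in osteoblasts 2 and was seen only in bone 3, at 0.198 FPKM. *Cxcl10* lies within the span of *Art3* on the opposite strand, so that reads of these genes cannot be told apart by strand.

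The remaining ligands were low. *Ccl21a*, a homing ligand of lymphoid tissue that acts through *Ccr7*, measured 3.19, 1.05 and 2.48 FPKM in bone 3, osteoblasts 2 and osteoblasts 3 and was listed at 0 in the rest. Reads may be shared with its near-identical copies *Ccl21b* and *Ccl21c*, which leaves its level uncertain, and this sharing was not tested. *Ccl21a* and *Ccl19* are each summed over 2 features. *Ccl19*, the other *Ccr7* ligand, was at 0.728 FPKM in bone 3 and 1.17 FPKM in osteoblasts 2 and listed at 0 elsewhere. *Cxcl5*, an attractant of neutrophils through *Cxcr2*, measured 1.45, 1.62 and 1.61 FPKM in bone 3, osteoblasts 2 and osteoblasts 3 and 0.161 FPKM in bone 1, and was listed at 0 in the other 2. *Xcl1*, a product of activated T and NK cells, measured 1.37, 0.541 and 0.397 FPKM in the same 3 and was listed at 0 in the rest. The neutrophil attractants *Cxcl1*, *Cxcl2*, *Cxcl3* and *Cxcl15* did not reach 1 FPKM in any library.

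*Cx3cl1*, the membrane-anchored ligand of *Cx3cr1*, was at 4.14, 1.84 and 2.80 FPKM in bone 1, 2 and 3 and at 1.96, 1.69 and 1.84 FPKM in osteoblasts. *Ccl25*, the ligand of *Ccr9*, was at 2.09, 1.28 and 2.21 FPKM in bone and 1.05, 2.60 and 2.77 FPKM in osteoblasts. *Ccl27a*, a skin-homing ligand of *Ccr10*, was at 1.72, 0.208 and 1.16 FPKM in bone and 0.121, 1.73 and 1.53 FPKM in osteoblasts. Its values in bone 2 and osteoblasts 1 were near or below the floor. These 3 genes had overlapping values under both labels. The features of *Ccl25* and *Ccl27a* overlap the expressed genes *Elavl1* and *Il11ra1* at one end, and *Ccl27a* is summed over 3 features.

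Taking the 21 ligands against the *Hbb-bt* state, 8 (38.1%) had all 3 values of the libraries above 1000 FPKM higher than all 3 others, beside 41.1% of the 14759 genes that reached 1 FPKM. In the opposite direction 7 ligands (33.3%) were lower in all 3, beside 15.2% of those genes. The split depended on the scaling. After scaling to the sum over named genes it was 6 ligands higher (28.6%, beside 25% of genes) and 10 lower (47.6%, beside 42.7%), with *Ccl6*, *Cxcl14* and *Cx3cl1* joining the lower set and *Ccl25* and *Cxcl10* leaving the higher one. Scaling to the 75th percentile gave 8 and 7 again, beside 48.6% and 18.2% of genes. On each of the 3 scales *Ccl5*, *Ccl8*, *Ccl21a*, *Cxcl5*, *Cxcl9* and *Xcl1* were higher, and *Ccl2*, *Ccl3*, *Ccl4*, *Ccl7*, *Ccl9*, *Cxcl13* and *Cxcl16* lower, where *Hbb-bt* was above 1000 FPKM. No test was run on this split, since it comes from the measured libraries and not from the labels.

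Neighbouring ligands on Chr. 11 could have opposite patterns. Of the 11 CC ligands in its 2 gene groups, *Ccl2* and *Ccl7* are 8258 bp apart and had one pattern, while *Ccl8*, 67659 bp beyond *Ccl7*, had the opposite one. *Ccl12*, 11784 bp before *Ccl8*, was seen only in libraries where *Ccl8* was listed at 0. In the other group *Ccl5* lies 42400 bp before *Ccl9* and was listed at 0 in the 3 libraries where *Ccl9* was highest.

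**Figure D3:**
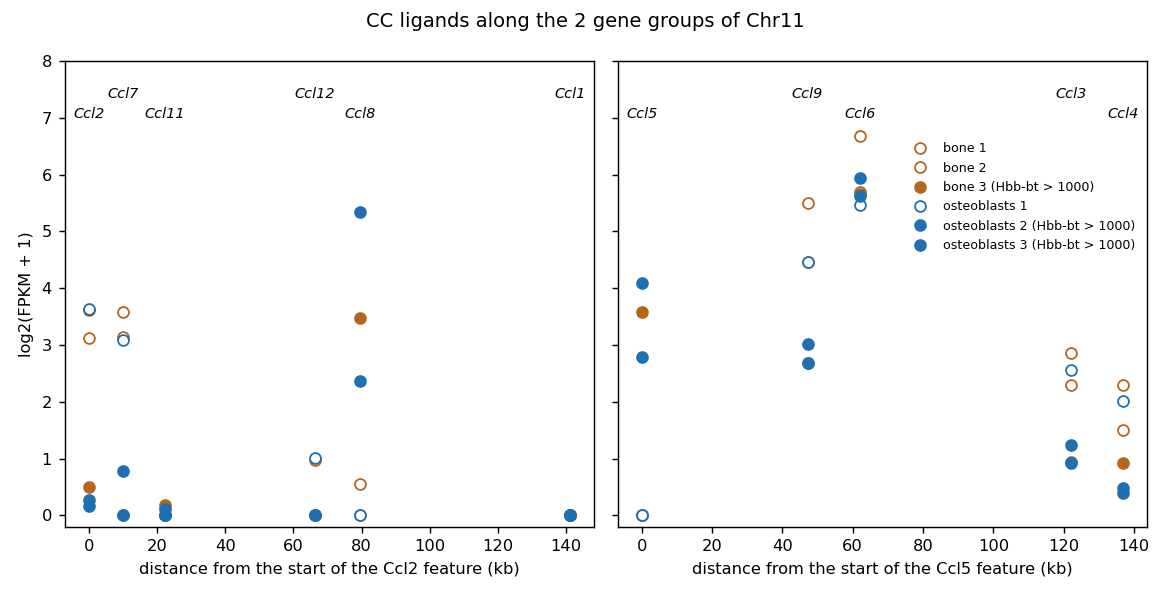
Level, as log2(FPKM + 1), of the 11 CC ligands of the 2 gene groups on Chr. 11 against the distance in kb from the first gene of each group, with 1 point per library, brown for bone, blue for osteoblasts and filled where *Hbb-bt* was above 1000 FPKM. Open points lie above filled ones at *Ccl2*, *Ccl7*, *Ccl9*, *Ccl3* and *Ccl4* and below them at *Ccl8* and *Ccl5*.

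The comparison of the labels asked whether the ligands differ between bone and marrow-derived osteoblasts. Among the 21 ligands none had all 3 osteoblast values above, or all 3 below, those of bone, beside 0.549% of genes for higher and 0.501% for lower. After scaling to the sum over named genes this was again 0 in both directions, beside 2.09% of genes higher and 0.488% lower. Scaled to the 75th percentile, 0 ligands were higher (beside 0.691% of genes), and *Cx3cl1* alone was lower in each osteoblast library than in each bone library (beside 1.88%). The test (limma on log2(FPKM + 1), with Benjamini-Hochberg adjustment) covered the 12112 genes whose FPKM averaged 1 or more, including 17 of the ligands. It called 0 of the 17 ligands, beside 0% of the 12112 genes, and no ligand had an unadjusted p under 0.05, while 17 genes of the whole table did.

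Of these 17 ligands, 7 had a higher and 10 a lower mean in the osteoblast libraries. The difference of *Cxcl13* was -1.69 on the log2(FPKM + 1) scale (standard error 1.59, 95% interval -5.30 to 1.92, limma adjusted p = 0.999), and it was -0.097 without bone 1. That of *Cxcl9* was 1.25 (standard error 0.92, 95% interval -0.83 to 3.34), and 0.13 without osteoblasts 2. *Ccl6* differed by -0.33 (standard error 0.51, 95% interval -1.49 to 0.83) and *Cx3cl1*, with the narrowest interval among those lower in osteoblasts, by -0.43 (95% interval -1.36 to 0.50). Each of the 17 intervals reached beyond 1 on the log2 scale in at least 1 direction, so that similar levels under the labels are not shown. The median difference of the 17 was -0.33, beside 0.12 over all genes tested, and after scaling to the sum over named genes it was -0.52 beside -0.03. The ligand median depended on the setting. It was -0.58 (beside 0.03 over all genes tested) without bone 2 and osteoblasts 1, and -0.50 (beside 0.21) without bone 3. Without osteoblasts 3 it was -0.16 (beside 0.03), and without bone 1 it was -0.05 (beside 0.27). Over the 21 ligands that reached 1 FPKM it was -0.05 (beside 0.13), and over 31 ligands with no filter on low values 0.02 (beside 0.03).

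The calls depended on osteoblasts 1. Without this library limma called *Cxcl13* lower in osteoblasts, with a difference of -3.11 on the log2 scale (adjusted p = 0.0307), and 2.48% of the 12112 genes. That fit sets osteoblasts 2 and 3, both with *Hbb-bt* above 1000 FPKM, against all 3 bone libraries.

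**Figure D4:**
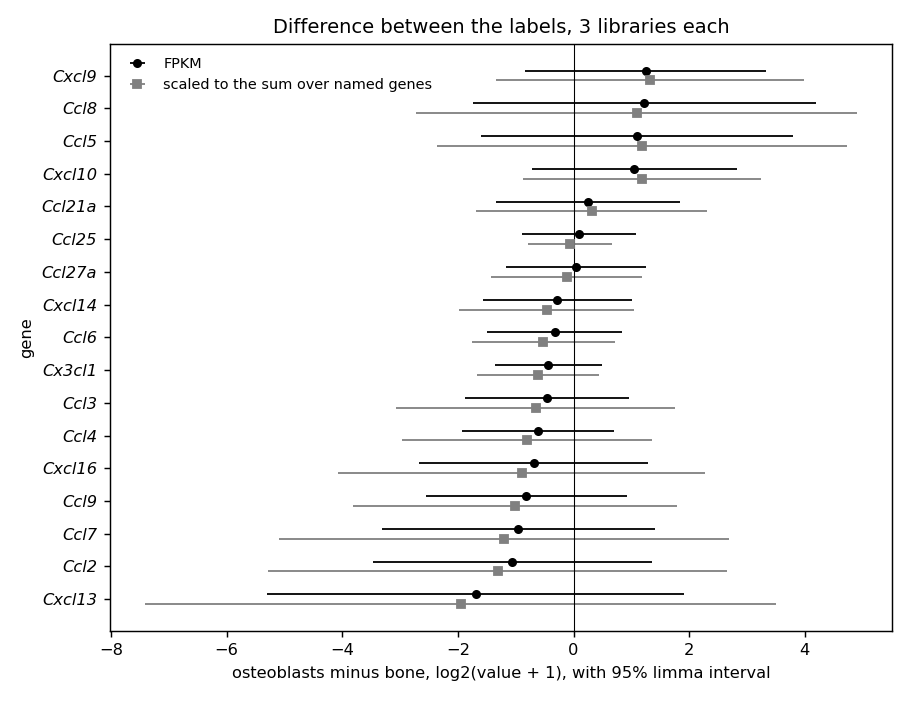
Difference between the labels for the 17 chemokine ligands tested, as osteoblasts minus bone on the log2(value + 1) scale with its 95% limma interval (3 libraries per label), for FPKM (black) and for FPKM scaled to the sum over named genes (grey). Every interval includes 0 on both scales.

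The receptors through which the ligands act were also measured. Of 18 listed signalling receptor genes 15 had a named feature, as had all 5 atypical ones, and limma called 0 of the 11 receptors that were tested, with 0 at an unadjusted p under 0.05. *Cxcr4*, the receptor of *Cxcl12*, was the highest on average, at 48.2, 35.0 and 79.4 FPKM in bone 1, 2 and 3 and 28.9, 87.7 and 107 FPKM in osteoblasts 1, 2 and 3. It was higher in the 3 libraries with *Hbb-bt* above 1000 FPKM, but the values overlapped once scaled to the sum over named genes. *Ccr1*, the receptor of *Ccl6*, *Ccl9*, *Ccl3* and *Ccl5*, overlapped between the labels, at 15.0, 8.48 and 7.98 FPKM in bone and 7.33, 8.93 and 10.7 FPKM in osteoblasts. *Cx3cr1*, a gene of monocytes and macrophages, reached 26.1 FPKM in osteoblasts 1 against 3.17 to 7.92 FPKM elsewhere.

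Among the atypical receptors, *Ackr4*, which clears *Ccl19*, *Ccl21* and *Ccl25*, measured 64.1, 36.9 and 5.79 FPKM in bone 1, 2 and 3 and 40.7, 2.61 and 6.10 FPKM in osteoblasts 1, 2 and 3. It was therefore highest where *Ccl21a* was listed at 0. *Ackr1*, the Duffy receptor of erythroid and endothelial cells, ran the other way, at 7.64, 20.2 and 18.8 FPKM in bone 3, osteoblasts 2 and osteoblasts 3 and at most 0.0458 FPKM in the rest. Without osteoblasts 1, limma called *Ackr1* among the 2.48% of genes called. *Ccrl2*, a receptor-like gene of myeloid cells, was at 4.86 to 5.98 FPKM in those 3 libraries and between 0.391 and 0.880 FPKM otherwise. *Ackr3*, a scavenger of *Cxcl12*, was at 3.39 to 7.69 FPKM throughout.

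**Figure D5:**
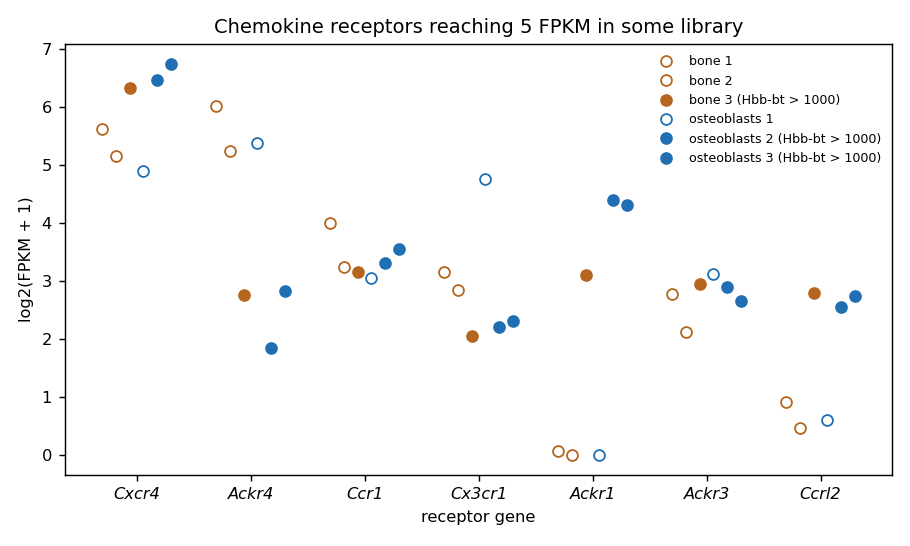
Level of 7 chemokine receptor genes that reached 5 FPKM in some library, as log2(FPKM + 1), with 1 point per library, brown for bone, blue for osteoblasts and filled where *Hbb-bt* was above 1000 FPKM. *Ackr4* and *Cx3cr1* are higher at the open points, *Cxcr4*, *Ackr1* and *Ccrl2* at the filled ones, and *Ccr1* and *Ackr3* show no such split in FPKM but are lower at the filled points once scaled to the sum over named genes.

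For scale, the platelet ligand *Pf4* measured 93.3, 41.1 and 293 FPKM in bone 1, 2 and 3 and 72.1, 366 and 290 FPKM in osteoblasts 1, 2 and 3. *Ppbp*, also of platelets, was at 162 to 272 FPKM in the libraries with *Hbb-bt* above 1000 FPKM and listed at 0 in the other 3. The 5 megakaryocyte and platelet markers found of 6 summed to 217 to 244 FPKM and 12.3 to 26.4 FPKM in these libraries, and their part in the levels of *Pf4* and *Ppbp* was not tested.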

How the data were processed

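The authors sequenced total RNA with a kit that does not mark strand, aligned the 75 bp read pairs to GRCm38 with HISAT2 2.0.5 and estimated expression with StringTie 1.3.3, and the submitters' processing notes also name SAMtools 1.7. The authors deposited for each library the coverage (mean read depth over a feature), the FPKM and the TPM (FPKM rescaled to a common sum) of 93285 features common to all tables. The deposited files hold no read counts.

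Features with one name were summed. The modal ratio of deposited coverage to FPKM gave the depth. FPKM were tested on log2(FPKM + 1) with limma 3.58.1 in R 4.3.3 (lmFit, eBayes with a trend) over genes whose FPKM averaged 1 or more, and the threshold was an adjusted p of 0.05. The fit was tested on simulated data. Their noise was the same for every gene and held no split within a label, unlike these libraries, so that run cannot show how the fit performs here. Ratios were compared by exact permutation (scipy 1.17.1, Python 3.11.15). Scaling to named genes divides each FPKM by their sum in the library.

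The members and lists were chosen with earlier results of these data known. Ligands that reached 1 FPKM in any library are named, as are receptors that reached 5, the 3 highest genes of the cytokine list, and marker genes listed at 0. *Sost*, *Dmp1*, *Ibsp* and *Bglap2* were named after their values were seen. Promoters come from RefSeq. Fold changes on this scale understate changes of low genes. Alternatives were the pseudocount, filter, unit, scaling, trend, replicate block and left-out libraries, and the scaling to the 75th percentile of the *Hbb-bt* split and the removal of 2 libraries together were added after seeing the data. Some listed genes are not reported here.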

Additional observations from a re-analysis of the deposited data

Results flagged for a closer look

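A signal lies at *Ccl24*, a ligand of *Ccr3* that is no member by the rule because no feature carries its name. An unnamed feature at chr5:135553845-135573056 in GRCm38 covers most of the RefSeq span of *Ccl24* (135569935 to 135573123) and all of *Ccl26*, whose own feature was listed at 0. It was flagged because it lies outside the genes compared and above the floor in every library. It measured 4.66, 3.77 and 0.649 FPKM in bone 1, 2 and 3 and 8.01, 0.256 and 0.205 FPKM in osteoblasts 1, 2 and 3, so that it was higher in the 3 libraries with *Hbb-bt* below 1000 FPKM. Which transcript of the feature the reads come from was not tested.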

How the results depend on the processing

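The limma counts of 0 ligands and 0 receptors called held under every alternative except the fit without osteoblasts replicate 1, which called 1 ligand (*Cxcl13*) and 1 receptor (*Ackr1*), so that leaving out 1 library gave 0 to 1 for each. Among all genes tested 0 were called in either direction, against 262 higher and 38 lower without osteoblasts replicate 1 and 66 higher and 11 lower without bone replicate 3, and the cause was not tested. The count of 21 ligands detected ranged from 15 (detected at 3 FPKM) to 23. That of 15 separated by *Hbb-bt* ranged from 12 (detected at 3 FPKM) to 18, the latter without bone replicate 2 and osteoblasts replicate 1. That removal leaves bone 1 as the only library with *Hbb-bt* below 1000 FPKM, which makes separation easier for any gene. No share over all genes was taken for these settings, so the counts of 12 and 18 cannot be read as a result about the ligands.

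Blocking the limma fit on replicate number left 0 ligands and 0 receptors past the adjusted threshold, while 46 of all genes passed it as higher and 3 as lower. At an unadjusted p under 0.05 this fit had 5 of the 17 ligands and 2 of the 11 receptors, beside 501 of the 12112 genes. Deviations of same-numbered libraries from their label mean correlated at 0.84, -0.75 and 0.83 over 12112 genes. The signs go with the *Hbb-bt* state, which is alike for numbers 1 and 3 and unlike for number 2. They cannot show whether same-numbered libraries share a mouse. Since the methods do not say which library comes from which mouse, the numbers were not taken to pair the libraries.

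Of the 168 differences under alternatives other than leaving out 1 library, 164 kept their direction and side of the threshold. The small differences of *Ccl27a* and *Ccl25* turned, with *Ccl27a* at -0.034 and -0.11 with pseudocounts of 0.1 and 0.01 and at -0.12 after scaling to the sum over named genes, where *Ccl25* was at -0.059. Leaving out 1 library at a time, 12 of 102 turned. The ranges were -0.17 to 0.95 for *Ccl21a*, -0.059 to 0.38 for *Ccl25*, -0.29 to 0.45 for *Ccl27a*, -0.50 to 0.0053 for *Ccl6*, -0.16 to 2.51 for *Ccl8* and -0.57 to 0.26 for *Cxcl14*. The cause was not tested. The depth limits what can be said of ligands near or below 0.133 to 0.221 FPKM. Such values include *Ccl2* in osteoblasts 2 and 3, *Cxcl5* and *Cxcl9* in bone 1, and *Cxcl10* in bone 1 and 2. *Ccl27a* in bone 2 and osteoblasts 1 is also among them.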

Other observations

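Among 20 genes of NF-kB feedback and inflammatory cytokines, 18 had a named feature. The 3 highest were *Il1rn*, the interleukin-1 receptor antagonist, *Nfkbia*, the inhibitor of NF-kB, and *Nfkb1*, one of its subunits. *Il1rn* measured 74.7, 25.9 and 28.3 FPKM in bone 1, 2 and 3 and 49.7, 35.0 and 38.0 FPKM in osteoblasts 1, 2 and 3. *Nfkbia* measured 37.5, 17.2 and 26.7 FPKM in bone and 20.6, 37.0 and 34.4 FPKM in osteoblasts. The values of both overlapped between the labels and between the libraries with and without *Hbb-bt* above 1000 FPKM, but after scaling to the sum over named genes both were lower in all 3 libraries with *Hbb-bt* above 1000 FPKM. Of the 15 genes that reached 1 FPKM, 6 were higher and 2 lower in all 3 libraries with *Hbb-bt* above 1000 FPKM, beside 41.1% and 15.2% of all genes that reached 1 FPKM. After scaling to the sum over named genes the counts were 3 and 9, beside 25% and 42.7% of genes. The part of the blood cells in these values was not tested.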
